A study of Homo sapiens with 6 samples.

Results

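The DREAM complex, its MuvB core and the 2 cell cycle transcription factors MYBL2 and FOXM1 were followed at the transcript level in T98G cells in which the kinase DYRK1A had been silenced. The members were the 10 genes LIN9, LIN37, LIN52, LIN54, RBBP4, RBL1, RBL2, E2F4, MYBL2 and FOXM1, taken by name from the 23026 genes of the deposited spike-in normalized table, and 10 of 10 were found. T98G is a human glioblastoma cell line. A lentiviral short hairpin RNA, either a control (shControl) or a hairpin against DYRK1A (shDYRK1A), was introduced, and the infected cells were selected with puromycin and left to recover, so that each library came from a selected pool and not from a clone. Each condition has 3 libraries with the letters 1A, 1B and 1C, whose values are given below in that order, and the labels do not say whether they came from separate cultures, so p-values measure only the spread between these libraries. T98G cells in equal numbers were mixed with a constant number of Drosophila Kc167 cells, and the fly reads set the scale of each library.

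DREAM is the repressor that holds cell cycle genes silent in quiescent and early G1 cells. It is built from the MuvB core (LIN9, LIN37, LIN52, LIN54 and RBBP4), a pocket protein (RBL1, also called p107, or RBL2, also called p130) and an E2F factor with its DP partner. DYRK1A phosphorylates LIN52, and this phosphorylation lets the pocket protein dock on the MuvB core. When cyclin-dependent kinases release the pocket protein, the same core binds B-MYB, the product of MYBL2, and later FOXM1, and it then activates the genes of mitosis that DREAM had repressed.

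The libraries held between 33708297 and 42154438 counts in genes, and their size factors, the constants by which the authors divided the counts, ran from 0.821 to 1.03 in shControl and from 1.06 to 1.21 in shDYRK1A. Unmapped reads ranged from 8.44 to 15.6%, with the highest share in shDYRK1A 1B. DYRK1A, the target of the hairpin, had a log2 fold change of -0.73 ± 0.15 (SE, n = 3 per condition; edgeR's quasi-likelihood test, Benjamini-Hochberg adjusted p = 5.33e-06), and each shDYRK1A library lay below each shControl library. By TMM, a scaling that removes what all genes share (below), it was -0.34 ± 0.06 (edgeR adjusted p = 0.000591), and the median of all tested genes with the spike-in was -0.40. With the spike-in, leaving out shControl 1A gave -0.70, leaving out shControl 1B gave -0.69 and leaving out shDYRK1A 1B gave -0.61, short of the fold threshold used below. Of 6 glioma and astroglia markers, VIM and CD44, which mesenchymal glioma lines express, passed the level filter described below, and the 6 together summed to 3335 to 3485 CPM (counts scaled to the same gene total in every library) in shControl and 3114 to 3200 in shDYRK1A. The other 4 did not pass the filter: NES had 1.29 to 2.02 CPM, SOX2 and GFAP had 3 and 9 counts over all libraries and S100B had 0. Of 6 markers of immune, endothelial, epithelial, neuronal, oligodendrocyte and monocyte cells, 0 passed the filter, and their sum was 1.85 to 2.60 CPM in shControl and 3.06 to 3.82 CPM in shDYRK1A.

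With the spike-in scale, 7 of the 9 members that could be tested fell at an adjusted p below 0.05 and none rose. A gene was tested when its mean normalized level was above 10 CPM, which 9697 genes reached. LIN52 stood just inside this limit at 10.07 CPM, and LIN37 was left out at 2.59 CPM. Across all tested genes 63.4% fell at the same adjusted p and 1.08% rose, since most transcripts went down together: the median log2 fold change of all tested genes was -0.40. The median of the 9 members was -0.66, which is 0.26 further down. With the fold threshold of the study (log2 fold change below -0.7 or above 0.7 besides the adjusted p), 3 members were called lower, LIN9, LIN54 and RBL1, beside 14.3% of all tested genes, and 0 were called higher beside 0.278%. This count came to 5 without shControl 1C or without shDYRK1A 1A and to 2 without shDYRK1A 1B, where RBL1 was at -0.67. The share of all tested genes called lower in those fits was not computed, so these changes cannot be read as particular to the members. In bulk libraries, less transcript per cell and fewer cells that express a gene cannot be told apart. The study reports that silencing DYRK1A in T98G cells raised the share of cells in G1 and lowered that in S phase. Whether this shift bears on the values given here was not tested.

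TMM scaling, which levels the libraries by the human genes themselves and so removes what all genes share, put the median of all tested genes at 0.00. On that scale LIN9, LIN52, LIN54, RBL1 and MYBL2 still fell at an adjusted p below 0.05, beside 28.6% of all tested genes, and E2F4 rose, beside 27.3%. None of the members passed the fold threshold on it, where 1.93% of all tested genes were called lower and 1.25% higher. Which members went down relative to the bulk of the transcriptome therefore differed from which members went down per spiked-in fly cell, and both values are given below for each member.

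**Figure D1:**
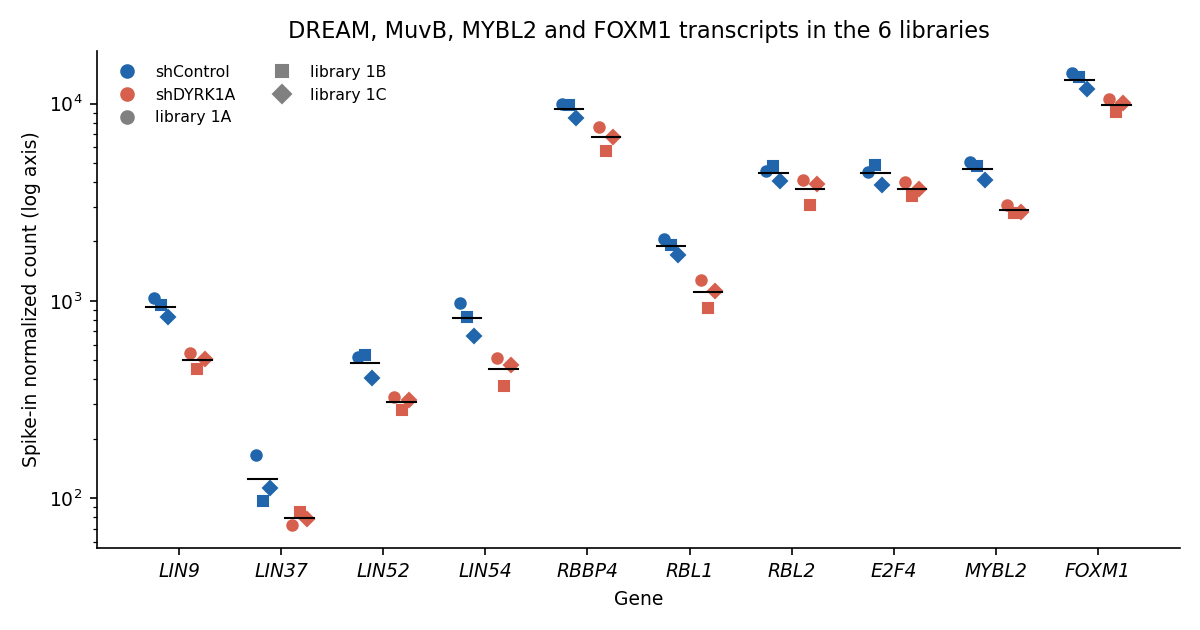
Spike-in normalized count (log axis) of the 10 members in each of the 6 libraries, with shControl in blue, shDYRK1A in red, the library letter as the shape of the point and the mean of 3 libraries as a line. The points of the conditions are apart for LIN9, LIN37, LIN52, LIN54, RBBP4, RBL1, MYBL2 and FOXM1 and overlap for RBL2 and E2F4.

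**Figure D2:**
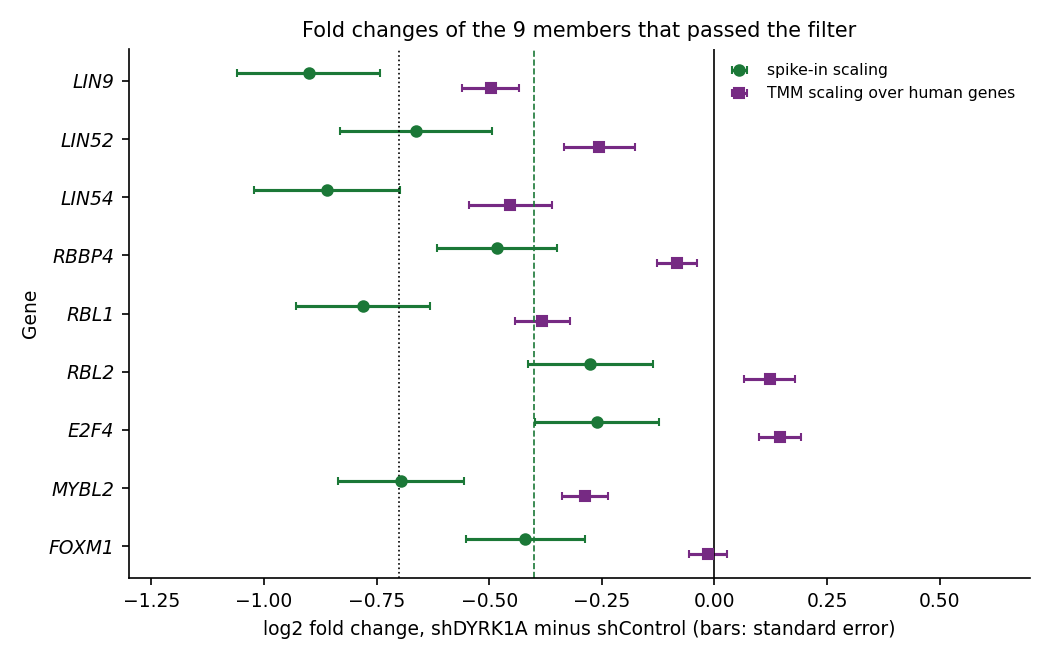
Log2 fold change, shDYRK1A minus shControl, of the 9 members that passed the filter, with the standard error as bars, by spike-in scaling (circles) and by TMM scaling (squares). The dotted line is the threshold of -0.7 and the dashed line the median of all tested genes with the spike-in, -0.40; RBL2 and E2F4 lie to the right of the dashed line, and to the right of 0 by TMM.

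Within the MuvB core, the largest falls were those of LIN9 and LIN54. LIN54 (ENSG00000189308, GRCh38 chromosome 4, 82909973 to 83012926, minus strand) encodes the subunit that binds DNA directly, at the cell cycle genes homology region (CHR). Its spike-in normalized counts came to 976, 824 and 665 in shControl and to 514, 372 and 471 in shDYRK1A. Every shDYRK1A library was below every shControl library, although the shControl libraries themselves spread widely (822 ± 156 against 452 ± 73.2, SD, n = 3). The log2 fold change was -0.86 ± 0.16 (SE; edgeR adjusted p = 1.16e-06) with the spike-in and -0.45 ± 0.09 (edgeR adjusted p = 0.00146) by TMM.

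LIN9 (ENSG00000183814, chromosome 1, 226231149 to 226309869, minus strand), a scaffold of the core, had normalized counts of 1034, 948 and 825 in shControl and 546, 449 and 506 in shDYRK1A. The conditions were far apart, with a gap between them that was wider than the range within either one, and the shDYRK1A mean was 53.6% of the shControl mean, the lowest share among the members tested. The log2 fold change of LIN9 was -0.90 ± 0.16 (SE; edgeR adjusted p = 1.97e-07) and by TMM -0.50 ± 0.06 (edgeR adjusted p = 5.97e-05).

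LIN52 (ENSG00000205659, chromosome 14, 74084796 to 74201235, plus strand), the subunit that DYRK1A phosphorylates, had normalized counts of 520, 529 and 407 in shControl and 326, 279 and 313 in shDYRK1A. All shDYRK1A libraries were below all shControl libraries. It fell by 0.66 on the log2 scale (SE 0.17; edgeR adjusted p = 0.000335), short of the fold threshold. By TMM the log2 fold change was -0.26 ± 0.08 (edgeR adjusted p = 0.0155), and this missed the threshold without shControl 1A (edgeR adjusted p = 0.0519) or shControl 1B (edgeR adjusted p = 0.0626).

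RBBP4 (ENSG00000162521, chromosome 1, 32651142 to 32686211, plus strand), a histone-binding WD40 protein that also serves in several other chromatin complexes, was the most abundant transcript of the core per kb of exon. It had 9992, 9835 and 8408 normalized counts in shControl and 7649, 5754 and 6799 in shDYRK1A, without overlap. The log2 fold change was -0.48 ± 0.13 (SE; edgeR adjusted p = 0.000952), close to the shift of all genes, and by TMM it was -0.08 ± 0.04 (edgeR adjusted p = 0.125). The 6 pseudogenes named after RBBP4 held 0.63% as many counts as the gene, and 18% of its exon bases lie opposite exons of SYNC on the other strand.

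LIN37 (ENSG00000267796, chromosome 19, 35748361 to 35754519, plus strand), which is needed for repression by DREAM, was the scarcest member per kb of exon, with 136, 85 and 115 raw counts in shControl and 77, 92 and 95 in shDYRK1A. The raw counts overlapped, and the normalized counts (166, 96.5 and 112 against 72.8, 85.2 and 78.2) did not. In the fit with the looser filter of edgeR (filterByExpr, 17530 genes) LIN37 had a log2 fold change of -0.66 ± 0.23 (SE; edgeR adjusted p = 0.0123), where 44.2% of the genes fell at an adjusted p below 0.05. With TMM and the same filter it was -0.28 ± 0.20 (edgeR adjusted p = 0.289), where 21.0% of the genes fell. Another protein-coding annotation on the same strand shares 26.7% of the exon bases of LIN37 and an antisense one covers 41.8%, so its reads are less certain than those of the other members.

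Short stretches of the promoters are shown where a member holds the DNA word that LIN54 reads. In RefSeq promoter windows (GRCh38.p14, 250 bases before to 50 bases after each start), which cover 9 of the 10 members, the CHR words TTTGAA and TTCGAA were searched on both strands, and they occurred in 19.5% of 27305 genes and in 4 of the 9 members. These genes had 35116 windows, of which 16.4% held a CHR word. LIN9 had 3 windows, LIN37, LIN54, RBL2 and RBBP4 had 2 each, and LIN52, RBL1, E2F4 and MYBL2 had 1 each. The searched length thus differed between members, and 4 of 9 cannot be set directly against 19.5%. Positions are relative to the start site, chromosome coordinates follow, and the word is in capitals.
LIN54, -100 from one annotated start and -89 from another, chr4:83010909-83010932, minus strand: ccttgtgcgTTTGAAggttggcgg
LIN9, -3, chr1:226309153-226309176, minus strand: cgggcagccTTTGAAaaagcggcg
LIN9, -60, chr1:226309210-226309233, minus strand: agctccgcaTTCGAAcctccctcg
LIN37, -182, chr19:35748623-35748646, plus strand: aagctcatcTTTGAActgtccccg
RBL2, 25 bases after the start, chr16:53434486-53434509, plus strand: gcttcgccgTTTGAAtggctgcgg
The word occurs both in members with large falls (LIN9 and LIN54) and in RBL2, which did not pass the test. It was absent from the windows of LIN52, RBBP4, RBL1 and MYBL2, which fell, and from that of E2F4, which did not pass. Whether the word bears on the fold changes of the members was not tested. The E2F words TTTCCCGC and TTCCCGCC, which overlap each other, were found in 4.77% of genes and in 1 member, LIN52, at -25 (chr14:74084922-74084947, plus strand): gaacctcgtTTTCCCGCcgacggttg. The palindrome TCTCGCGAGA, which the study associates with DYRK1A at promoters, was present in 0.505% of genes and in 0 of the 9 members. These matches are letters in a window and are not measured binding.

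Of the pocket proteins, RBL1 fell and RBL2 did not pass the test. RBL1 (p107; ENSG00000080839, chromosome 20, 36996349 to 37095995, minus strand), which is itself made mainly in cycling cells, had normalized counts of 2055, 1928 and 1703 in shControl and 1273, 920 and 1116 in shDYRK1A. The lowest shControl library was well above the highest shDYRK1A library. The log2 fold change of RBL1 was -0.78 ± 0.15 (SE; edgeR adjusted p = 1.80e-06) and by TMM -0.38 ± 0.06 (edgeR adjusted p = 0.000282).

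RBL2 (p130; ENSG00000103479, chromosome 16, 53433977 to 53491649, plus strand), the main pocket protein of DREAM in quiescent cells, had 4560, 4802 and 4037 normalized counts in shControl and 4119, 3047 and 3902 in shDYRK1A. Here the conditions overlapped, with shDYRK1A 1A above shControl 1C, and shDYRK1A 1B stood below all others. The totals over all genes on this scale were likewise lowest in 1C among shControl libraries. Among shDYRK1A libraries they were highest in 1A and lowest in 1B. The log2 fold change was -0.28 ± 0.14 (SE; edgeR adjusted p = 0.0682), and it passed the threshold without shControl 1C (-0.34, edgeR adjusted p = 0.0100) or without shDYRK1A 1A (-0.36, edgeR adjusted p = 0.0321). By TMM the sign turned, to 0.12 ± 0.06 (edgeR adjusted p = 0.0855), and the TMM value passed without shDYRK1A 1B (0.18, edgeR adjusted p = 0.00101). Of the exon bases of RBL2, 18.2% lie opposite annotations on the other strand, AKTIP among them.

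E2F4 (ENSG00000205250, chromosome 16, 67192169 to 67198918, plus strand), the repressor E2F of DREAM, had 4497, 4895 and 3885 normalized counts in shControl and 3995, 3394 and 3694 in shDYRK1A. As for RBL2, the ranges overlapped, shDYRK1A 1A being above shControl 1C. With the spike-in its log2 fold change was -0.26 ± 0.14 (SE; edgeR adjusted p = 0.0848), which passed without shControl 1C (-0.35, edgeR adjusted p = 0.00942) and with DESeq2 in place of edgeR (DESeq2 adjusted p = 0.0484). Relative to the other human genes it went the other way: by TMM the log2 fold change was 0.15 ± 0.05 (edgeR adjusted p = 0.0187), and E2F4 was the sole member with CPM in every shDYRK1A library above every shControl library. This value did not pass without shControl 1A (0.11, edgeR adjusted p = 0.0880) or without shControl 1C (0.14, edgeR adjusted p = 0.0750). Nor did it pass by TMM with filterByExpr (0.11 ± 0.05, edgeR adjusted p = 0.0778).

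MYBL2 (ENSG00000101057, chromosome 20, 43667019 to 43716496, plus strand) encodes B-MYB, the activator that takes the place of the pocket protein on the core in S phase. In shControl it had normalized counts of 5072, 4836 and 4092, and in shDYRK1A 3050, 2789 and 2803. The shDYRK1A libraries lay close together and far below the shControl libraries, at 61.7% of their mean. The log2 fold change was -0.70 ± 0.14 (SE; edgeR adjusted p = 5.18e-06), just above -0.7, so that MYBL2 was not called. It did reach the threshold without shControl 1C (-0.78) or without shDYRK1A 1A (-0.74), and by TMM it was -0.29 ± 0.05 (edgeR adjusted p = 0.000588). LIN52 reached the fold threshold in the same fits, at -0.78 and -0.71.

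FOXM1 (ENSG00000111206, chromosome 12, 2857681 to 2877155, minus strand), the forkhead factor that joins MYBL2 on the core at the genes of G2 and mitosis, had 14226, 13620 and 11802 normalized counts in shControl and 10512, 9085 and 10041 in shDYRK1A. The conditions did not overlap. Its log2 fold change of -0.42 ± 0.13 (SE; edgeR adjusted p = 0.00364) was nearly the shift of all genes, and it missed the threshold without shControl 1A (-0.36, edgeR adjusted p = 0.0505). By TMM the value was -0.01 ± 0.04 (edgeR adjusted p = 0.793), it turned to 0.01 without shDYRK1A 1A, and the CPM of the conditions overlapped (292 ± 6.0 in shControl and 293 ± 7.58 in shDYRK1A, SD, n = 3). Exons of ITFG2 on the other strand cover 15.9% of its exon bases.

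Over the 9 tested members, every shDYRK1A library was below every shControl library for 7 in normalized counts, beside 63.6% of all tested genes (1.59% were above throughout, and 0 members), and for 5 in CPM (LIN9, LIN52, LIN54, RBL1 and MYBL2), beside 29.3%. In CPM the 1 member higher throughout, E2F4, stands beside 33.5% of all tested genes.

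Ratios between members within a library do not depend on how the libraries are scaled. The log2 ratio of RBL1 to RBL2 raw counts was -1.15, -1.32 and -1.25 in shControl and -1.69, -1.73 and -1.81 in shDYRK1A. All shDYRK1A libraries were below all shControl libraries, a difference of -0.51, or a ratio 0.705 times that of shControl (two-sided exact permutation test, p = 0.1, the smallest that 3 libraries against 3 allow; 0.2 adjusted over the 4 ratios). The share of RBL1 in the counts of RBL1 and RBL2 together was thus smaller in each shDYRK1A library.

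FOXM1 over the MuvB core (its log2 count minus the mean log2 count of the 5 core genes) was 3.87, 4.04 and 4.01 in shControl and 4.25, 4.27 and 4.26 in shDYRK1A. The groups were again apart, in the other direction, with a difference of 0.29 (exact permutation p = 0.1, adjusted 0.2), and with the median over the core in place of the mean it was 0.44. MYBL2 over the MuvB core was 2.38, 2.54 and 2.48 in shControl and 2.47, 2.57 and 2.42 in shDYRK1A, overlapping ranges with a difference of 0.01 (exact permutation p = 0.8, adjusted 0.8). Leaving out shControl 1A or shDYRK1A 1B turned this value to -0.03, and the median over the core gave 0.17, so no direction can be given for it.

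LIN52 over the other 4 core genes was -1.13, -0.81 and -1.06 in shControl and -0.95, -0.94 and -0.93 in shDYRK1A. The shControl libraries spread to both sides of the tightly placed shDYRK1A libraries, and the difference was 0.06 (exact permutation p = 0.7, adjusted 0.8). LIN37, which failed the level filter, has equal weight here, so its few counts enter both this spread and the closeness of the shDYRK1A libraries. Among shControl libraries, the lowest ratio was in 1A, with the most LIN37 counts (136), and the highest in 1B, with the fewest (85). This order does not rest on LIN37 alone: LIN52 had 427 raw counts in 1A and 466 in 1B, and LIN54 had 802 and 726. With LIN37 left out of the core, the difference for LIN52 was 0.09 (exact permutation p = 0.3). The same change gave 0.31 for FOXM1 (exact permutation p = 0.1) and 0.035 for MYBL2. With LIN37 kept, LIN52 gave -0.0046 without shControl 1A, and 0.22 with the median over the core (exact permutation p = 0.1).

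**Figure D3:**
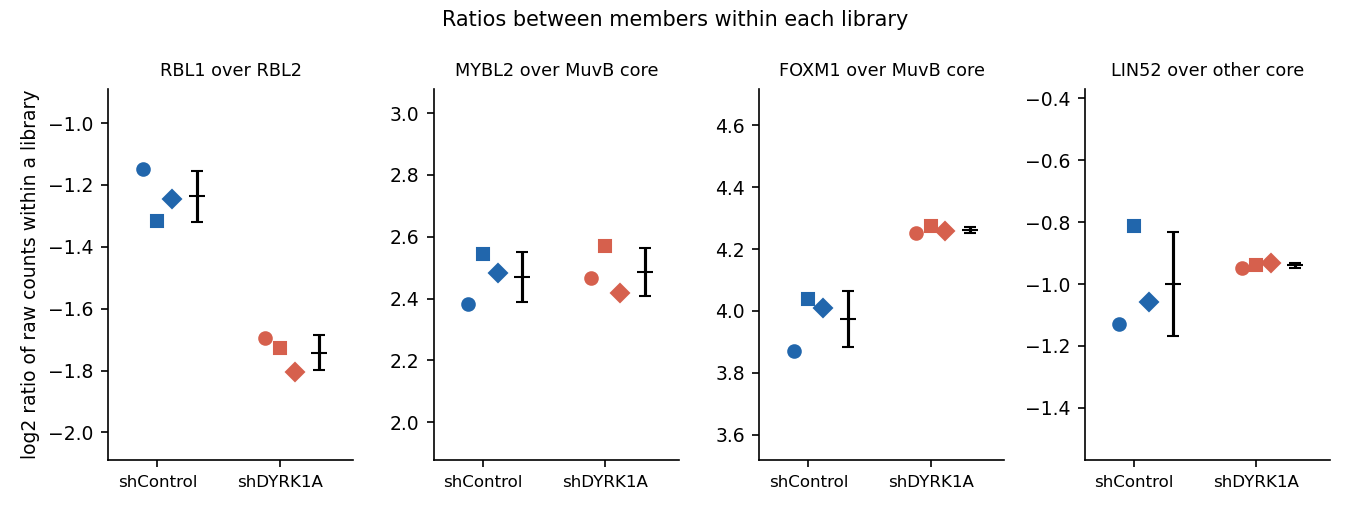
Log2 ratio of raw counts within a library for the 4 ratios (1 panel each, every axis spanning the same number of log2 units), with shControl in blue, shDYRK1A in red, the library letter as the shape of the point (circle 1A, square 1B, diamond 1C), and the mean and SD of 3 libraries in black. RBL1 over RBL2 was lower in all shDYRK1A libraries and FOXM1 over the MuvB core higher, and the ranges overlap in the other panels.

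Per kb of annotated exon, the activators stood at the top and most of the core at the bottom. This length counts every annotated exon base of a gene once and is not that of 1 expressed transcript. LIN37 also shares exon bases with other annotations, as given above, so its level is less certain. Spike-in normalized counts per kb of exon in shControl were 2698 ± 258 (SD, n = 3) for FOXM1, 1680 ± 184 for MYBL2, 1236 ± 142 for E2F4, 994 ± 92.2 for RBBP4, 610.2 ± 53.5 for RBL2, 318 ± 29.9 for RBL1, 211 ± 23.6 for LIN9, 131 ± 18.4 for LIN52, 121 ± 23 for LIN54 and 44.2 ± 12.9 for LIN37. Neighbours in this order had ranges apart in shControl, except LIN52 and LIN54, whose ranges overlapped. The order held in all 6 libraries for the other neighbours but 1: MYBL2 was above E2F4 in 4 of 6 libraries, and their means in shDYRK1A were 1037 ± 52.9 and 1031 ± 84.0. RBL2 was above RBL1 in 6 of 6 libraries.

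**Figure D4:**
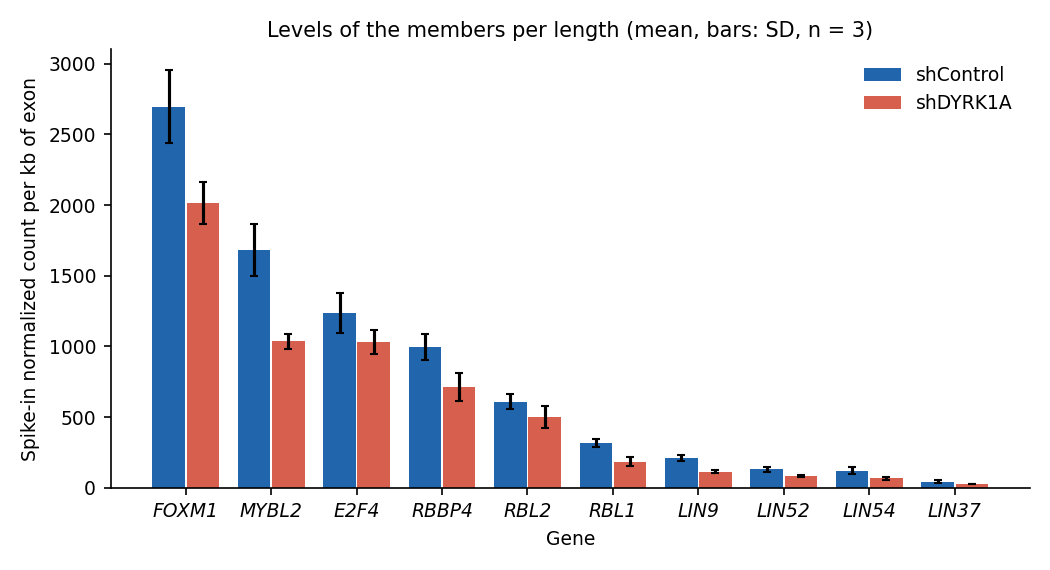
Spike-in normalized count per kb of exon of the 10 members (bars: mean of 3 libraries, error bars: SD), ordered by the level in shControl (blue), with shDYRK1A in red. FOXM1 is the highest and LIN37 the lowest member, and MYBL2 comes down to the level of E2F4 in shDYRK1A.

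The other DREAM subunits and the paralogs of the members followed. MYBL1, the relative of MYBL2 known best from the testis, had the lowest fold change of this list, with normalized counts of 1041, 1013 and 764 in shControl and 409, 233 and 375 in shDYRK1A. Its log2 fold change was -1.47 ± 0.16 (SE; edgeR adjusted p = 6.37e-17) and by TMM -1.07 ± 0.12 (edgeR adjusted p = 2.26e-05). RB1, the pocket protein that is no part of DREAM, fell by 0.65 on the log2 scale, and TFDP2, a DP partner of the E2F factors, fell by 0.58. RBBP7, the paralog of RBBP4, had -0.39 and TFDP1, the other DP partner, -0.32. Of the 6 genes listed 5 could be tested (E2F5 was at 7.61 CPM), 5 of these fell at an adjusted p below 0.05 (63.4% of all tested genes), 1 was called lower (14.3%), and the median was -0.58. By TMM, 3 fell (28.6% of all tested genes), namely MYBL1, RB1 and TFDP2, while RBBP7 and TFDP1 had values of the other sign, 0.017 and 0.078. With the spike-in, TFDP1 and RBBP7 each missed the threshold when any of 4 libraries was left out, namely 1A and 1B of shControl or 1B and 1C of shDYRK1A (TFDP1 -0.29, -0.27, -0.23 and -0.31; RBBP7 -0.32, -0.36, -0.32 and -0.38). TFDP1 also missed it with no filter beyond 1 count (edgeR adjusted p = 0.0617). The number called lower was 2 without shControl 1C, shDYRK1A 1A or shDYRK1A 1C, where the share of all tested genes was not computed.

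Among the kinases, cyclins and inhibitors that assemble or dissolve DREAM, the cyclins that start S phase fell most and DYRK1B rose. CCNE2 and CCNE1, the E-type cyclins, had log2 fold changes of -1.20 ± 0.16 and -1.15 ± 0.16 (SE). They were the 2 genes of the list still called lower by TMM (-0.80 and -0.75), beside 1.93% of all tested genes. CCNE2 had normalized counts of 1282, 1317 and 1058 in shControl and 589, 410 and 589 in shDYRK1A, far apart. LATS2, a Hippo pathway kinase known to act upstream of DYRK1A, had a log2 fold change of -0.99 ± 0.16. At the other end DYRK1B, the closest relative of DYRK1A, went from 467, 576 and 424 normalized counts to 817, 739 and 751, every shDYRK1A library above every shControl library. The rise of DYRK1B was 0.65 ± 0.16 (SE; edgeR adjusted p = 0.000222) with the spike-in and 1.06 ± 0.08 by TMM, where it was called higher, beside 1.25% of all tested genes.

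The CDK inhibitors had no call with the spike-in. CDKN1A (p21) had 1685, 1800 and 1537 normalized counts in shControl and 1988, 1878 and 2039 in shDYRK1A, which do not overlap, with a log2 fold change of 0.23 ± 0.15 (SE; edgeR adjusted p = 0.141), and by TMM it rose by 0.64 (edgeR adjusted p = 9.28e-06). CDKN1B (p27) had -0.16 ± 0.15 (edgeR adjusted p = 0.321), and by TMM the sign turned and it rose by 0.24 (edgeR adjusted p = 0.00610). Of the 17 genes listed, DYRK1A among them, 15 could be tested. With the spike-in 11 fell at an adjusted p below 0.05 (63.4% of all tested genes), 1 rose (1.08%) and 8 were called lower (14.3%), with a median of -0.73. By TMM 10 fell (28.6% of all tested genes) and 3 rose (27.3%), with a median of -0.34. DYRK1A, the target of the hairpin, is counted among the 11, the 8 and the 10. Both medians are its own values. CCND2 and CDKN2C had 0 counts in all libraries, which allows up to 0.0127 CPM over the 6 libraries, for counting error alone.

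Of the 42 replication and S phase genes that E2F factors and DREAM bind, 42 were tested. With the spike-in 42 fell at an adjusted p below 0.05 (63.4% of all tested genes) and 35 were called lower (14.3%), with a median log2 fold change of -0.84 beside the -0.40 of all tested genes. By TMM 40 fell (28.6%), 3 were called lower (1.93%) and the median was -0.43. The lowest were RFC3, a subunit of the clamp loader of replication, at -1.53 ± 0.15 (SE), RRM2, the small subunit of ribonucleotide reductase, at -1.20 ± 0.14, and GINS1, of the replicative helicase, at -1.11 ± 0.15. RFC3 had 3276, 3268 and 2553 normalized counts in shControl and 1078, 932 and 1147 in shDYRK1A. The highest of the list were MCM7, of the helicase ring, at -0.53 ± 0.13, LIG1, the DNA ligase of replication, at -0.52 ± 0.14, and RFC2, another clamp loader subunit, at -0.49 ± 0.14. The normalized counts of RFC3, RRM2, GINS1, MCM7, LIG1 and RFC2 did not overlap between conditions, and 63.6% of all tested genes were lower throughout in the same way.

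Of the 40 mitotic genes that MYBL2, FOXM1 and the core activate, 40 were tested. With the spike-in 38 fell at an adjusted p below 0.05 (63.4% of all tested genes) and 11 were called lower (14.3%), with a median of -0.57. By TMM 25 fell (28.6% of all tested genes), 1 rose (27.3%) and 0 were called lower (1.93%), with a median of -0.17. ASPM, a spindle pole protein, TOP2A, which untangles chromosomes, and PLK4, the kinase of centriole duplication, were lowest, at -0.90 ± 0.14, -0.90 ± 0.13 and -0.87 ± 0.15 (SE). KIF2C, a kinesin of the centromere, had -0.34 ± 0.13, PTTG1 (securin) -0.28 ± 0.13 and CDC25B, a phosphatase that activates CDK1, -0.19 ± 0.13, with edgeR adjusted p = 0.0183, 0.0576 and 0.179. By TMM all 3 had values above 0 (0.065, 0.14 and 0.21), of which that of CDC25B passed the test (edgeR adjusted p = 0.00115). The count called lower was 7 without shControl 1A and 5 without shDYRK1A 1B, fits for which the share of all tested genes was not computed. KIF2C missed the threshold on leaving out any of the same 4 libraries as TFDP1 (-0.28, -0.32, -0.28 and -0.36), while PTTG1 and CDC25B passed without shControl 1C (-0.37 and -0.27) and PTTG1 also with DESeq2 in place of edgeR (DESeq2 adjusted p = 0.0311). Whether the S phase and the mitotic genes differed from each other was not tested.

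**Figure D5:**
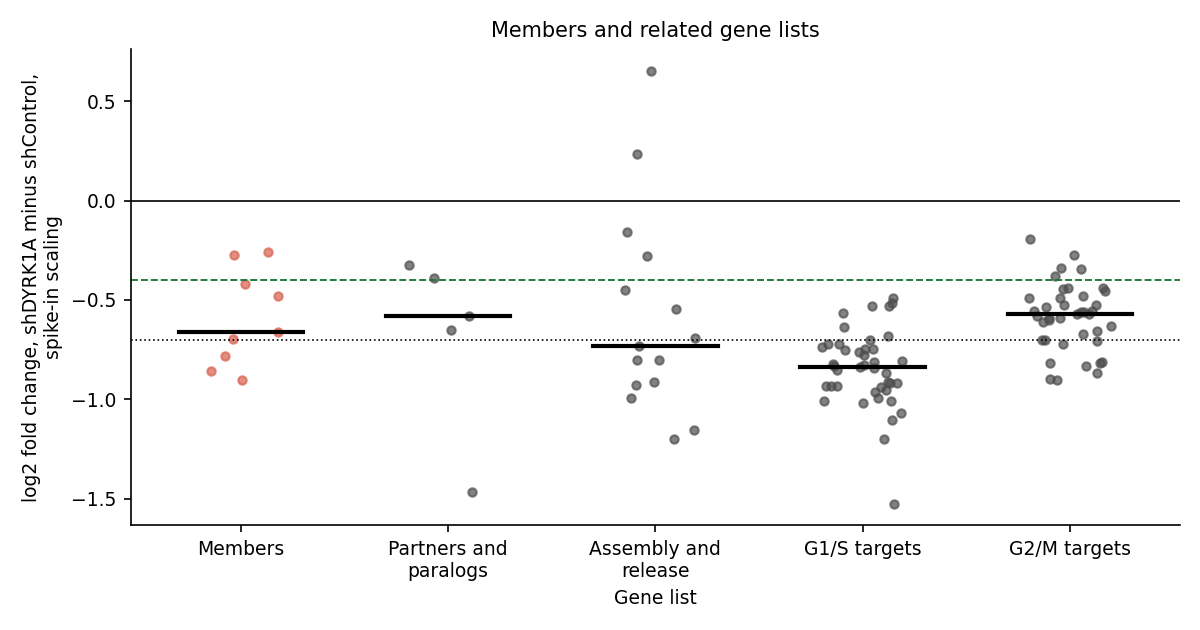
Log2 fold change, shDYRK1A minus shControl with spike-in scaling, of each tested gene of the members and of the 4 related lists (1 point per gene, bar: median). The dashed line is the median of all tested genes, -0.40, and the dotted line the threshold of -0.7. The medians of the lists are -0.66 for the members, -0.58, -0.73, -0.84 and -0.57. The list with the median of -0.73 includes DYRK1A, the target of the hairpin.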

How the data were processed

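Messenger RNA was sequenced in 6 T98G libraries, 3 shControl and 3 shDYRK1A, grouped by sample title. The authors prepared stranded paired-end libraries and deposited raw counts per gene (58174 human identifiers per library), made with STAR on hg38 and dm3 per the submitters' processing notes; versions and the strand setting of the counting are not given in the sources used here. A table deposited by the authors holds a size-factor normalized signal for 23026 genes, in which each column is the counts divided by 1 constant per library, derived from the fly reads. The authors' DESeq2 comparison table (fold changes, errors, Wald statistics, p-values) was not used. Unmapped, multimapping, feature-less and ambiguous reads (8.44 to 15.6%, 2.26 to 2.49%, 3.66 to 4.81% and 3.42 to 3.59% of reads) stayed out of library sizes. The number of columns that matched no sample was 0.

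The constants served as size factors for the raw counts in edgeR 4.0.16 (glmQLFit, robust, and glmQLFTest), over the 9697 genes with a mean normalized level above 10 CPM, with Benjamini-Hochberg adjustment over all 9697. Called genes had a log2 fold change below -0.7 or above 0.7 besides an adjusted p under 0.05; "fell" and "rose" refer to the adjusted p alone. SE is the fold change divided by the root of the F statistic. For ratios, an exact permutation test (two-sided) was used. Exon lengths, strands and overlaps came from GENCODE 29, whose coordinates equalled those of the deposited table for 95.8% of genes, and promoter windows from RefSeq (GRCh38.p14). Scripts ran in R 4.3.3 (limma 3.58.1, DESeq2 1.42.0) and Python 3.11.15 (scipy 1.17.1), and the fit was tested on simulated data.

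The named genes are DYRK1A, the members, and the 3 lowest and 3 highest of each list (all, for lists of up to 6 tested). E2F5, CCND2 and CDKN2C are named besides as genes that could not be tested. The members and lists were chosen with earlier results of these data known, so no count over a list is independent support. Protein sequences were not used here. Other settings were scaling by TMM or by the median of ratios, DESeq2 in place of edgeR, filterByExpr, a filter of 1 count, a block for the replicate letter and leaving out each library in turn. For ratios they were a pseudocount of 1, the median over the core and the block. TMM with filterByExpr, TMM with each library left out and the core without LIN37 were added after seeing the data.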

Additional observations from a re-analysis of the deposited data

How the results depend on the processing

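Scaling decided most of the calls. With TMM and with the median of ratios the numbers called lower were 0 members, 2 genes of DREAM assembly and release, 3 of the G1/S targets and 0 of the G2/M targets, beside 3, 8, 35 and 11 with the spike-in. Of all tested genes 1.93% were called lower by TMM and 14.3% with the spike-in. Among the named genes, signs turned for RBL2 (0.12 and 0.13 by the 2 scalings), E2F4 (0.15 and 0.15), RBBP7 (0.017 and 0.020), TFDP1 (0.078 and 0.081), CDKN1B (0.24 and 0.25), KIF2C (0.065 and 0.068), PTTG1 (0.14 and 0.14) and CDC25B (0.21 and 0.22). Partners and paralogs called lower were 2 with filterByExpr and with no filter, beside 1. Leaving out 1 library in turn gave 2 to 5 members called lower, 1 to 2 partners, 6 to 9 assembly genes, 29 to 37 G1/S targets and 5 to 15 G2/M targets. The shares of all tested genes in these fits were not computed. The MYBL2 to core ratio ran from -0.028 to 0.052 and the LIN52 to other core ratio from -0.0046 to 0.15. FOXM1 by TMM ran from -0.032 to 0.010, above 0 without shDYRK1A 1A. The causes were not tested.

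With the replicate letter as a block the members called lower were 3 and the G2/M targets 10, and no call of a member changed. Same-letter libraries had correlated deviations of 0.15, 0.07 and 0.13, and those of different letters ran from -0.094 to -0.014. Every library thus correlated best with its own letter, although not all of these values were above 0.1. The main fit left the letters unpaired, and these values do not settle whether the letters pair the conditions. At 3 libraries against 3 the exact test cannot go below 0.1, and LIN37 is limited by its counts.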

Other observations

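The fold changes of all tested genes with a RefSeq promoter window were set beside the presence of the searched words. Of 1174 tested genes with a CHR word 19.0% were called lower with the spike-in, with a median log2 fold change of -0.46 (TMM -0.06), beside 13.8% and -0.40 (TMM 0.01) in the 6420 tested genes with a window and no word. For the E2F words the values were 19.0% and -0.43 in 654 genes and 14.1% and -0.40 in 6940, and for the palindrome TCTCGCGAGA 14.8% and -0.42 in 88 genes and 14.6% and -0.41 in 7506. These are descriptions with no test, and the members and the genes of the lists are among these genes.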
